A study of Mus musculus with 16 samples.

Results

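Induced pluripotent stem (iPS) cells made from epiblast stem cells (EpiSC) were compared with EpiSC on 4 of the 16 Agilent one-colour arrays of a mouse study of ES cells, EpiSC and EpiSC-like lines. The members were chosen by title. They are the EpiSC arrays of passage 12 (P12) and passage 20 (P20) and the iPS arrays titled iPS_EpiSC 3M and iPS_EpiSC 1K, called 3M and 1K from here on. The labels give all 4 as non-NOD, a strain entry that sets them apart from the lines of non-obese diabetic (NOD) mice, and they give no passage for the iPS arrays. The sources used here do not give the meaning of 3M and 1K, the method of reprogramming, the parent EpiSC line or the number of clones. Other arrays were used to set the spread and as points of reference: NOD ES cells (NOD-ES 4K, NOD ES 43 KP/CH and NOD ES 85 KP), 129 ES cells at passage 8 (2 arrays titled mESM and 1 titled epiESM), 4 arrays of NOD EpiSC-like ES line 1 (passages 5, 7, 9 and 10) and 2 of NOD EpiSC-like iPS line 6 (passages 7 and 12).

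Naive pluripotency, found in the early embryo and in ES and fully reprogrammed iPS cells, is kept by LIF-STAT3 signalling and a network of factors such as Klf4, Esrrb and Tfcp2l1. Primed pluripotency, found in the implanted epiblast and in EpiSC, is kept by FGF and Nodal or activin signalling and marked by Fgf5 and Otx2. Both states express Pou5f1, and a change from primed to naive is followed by loss of primed genes and gain of naive ones. A level below is log2 of the processed signal minus the 75th percentile of the same array, so levels of different genes are not compared. A difference is iPS minus EpiSC in log2 units, ± is the standard error of the fit, and a gene rose or fell only where its limma p, adjusted by the Benjamini-Hochberg method over all genes, was under 0.05. Where a gene was not well above background on any array of a side, the change is given as at least N-fold, a bound set by the weakest signals that those arrays measured well above background. The labels do not say whether arrays of a group came from separate cultures, so p-values measure the spread between these arrays, and the small number of arrays limits the precision. In bulk RNA, fewer cells of a type and less RNA per cell cannot be told apart.

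The arrays differed in how much they measured. Gene spots well above background made up 55.9% and 71.7% of all on EpiSC P12 and P20, 51.2% on 3M and 40.5% on 1K. They made up 26.3% on NOD-ES 4K, which lay on the same slide as both iPS arrays, and 56.8% to 88.5% on the other 11 arrays. No gene spot was saturated. The part of these unequal shares in the results was not tested.

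The labels of the iPS arrays were checked against the other arrays by the standard deviation, over probes well above background on both, of the difference between 2 arrays. The array labelled 1K lay nearest to NOD ES 43 (0.387, over 16287 probes) and NOD ES 85 (0.397, over 16332). These distances were below that between EpiSC P12 and P20 (0.439, over 22333) and above that between the mESM arrays (0.200, over 28993). The sets of probes differ between pairs, so such distances are not strictly alike. The array 1K lay farther from the 129 ES arrays (0.841 to 0.865), 3M (0.963) and EpiSC (1.123 and 1.236). The array labelled 3M lay nearest to NOD-ES 4K (0.697, over 10125 probes), then to epiESM (0.937) and 1K (0.963), and was 1.134 and 1.289 from EpiSC. NOD-ES 4K lay farther from NOD ES 43 (1.125) and NOD ES 85 (1.151) than from 3M, so its label is open to doubt as well. It stayed in the NOD ES group in the main fits, and the cause of its distance was not tested. Only 3 genes (Npy, Entpd3 and Trpv3) separated the other NOD arrays from the other non-NOD arrays by at least 1 log2 unit, all higher in NOD. On 1K all 3 were nearer the NOD mean, with Npy not well above background, and on 3M 0 of 3 were, with none well above background. NOD-ES 4K, left out when these genes were picked, had all 3 nearer the NOD mean, with none well above background. The label of 1K as a non-NOD line is therefore doubtful, so counts for 3M alone, which is the comparison without 1K, stand beside those of the mean, and a named gene that changed in the mean but was not called for 3M alone is said to be so.

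**Figure D1:**
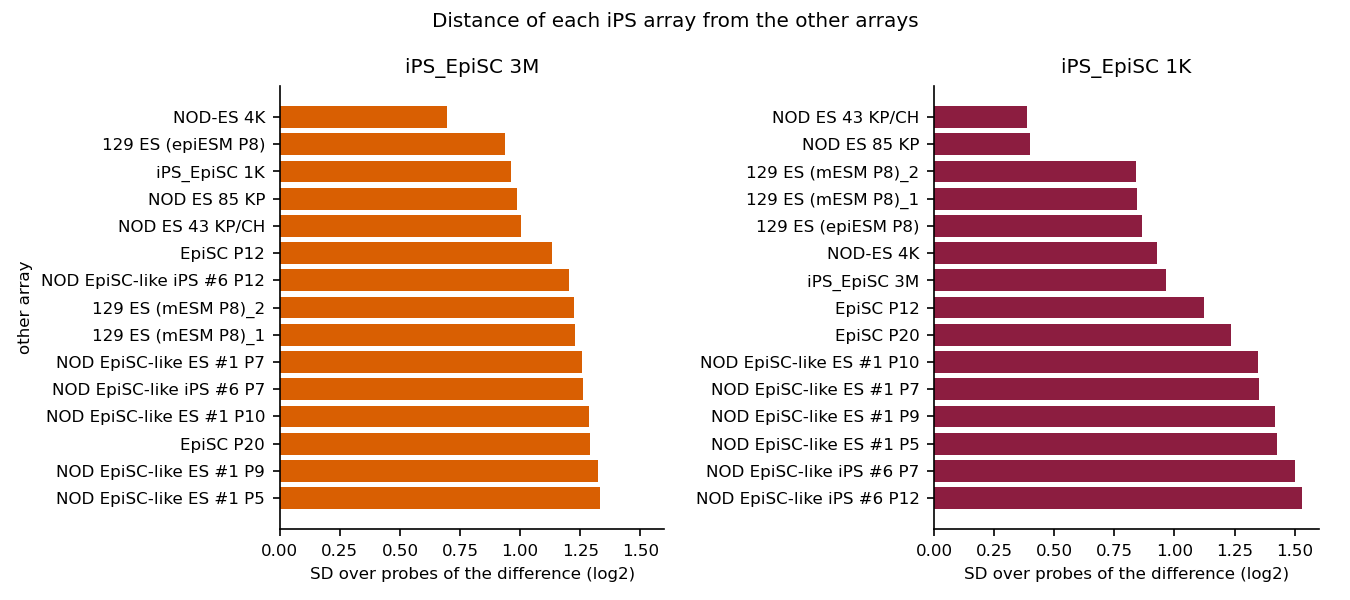
Distance of 3M (left) and 1K (right) from each of the other 15 arrays, as the standard deviation over probes of the difference in log2 units, on an axis from 0. The shortest bars are NOD-ES 4K for 3M (0.697) and NOD ES 43 and 85 for 1K (0.387 and 0.397), and the EpiSC arrays lie at 1.123 or more in both panels.

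Of 23192 genes tested in the mean of both iPS arrays against EpiSC, 4831 (20.8%) changed, 2702 up (11.7%) and 2129 down (9.18%). For 3M alone 5639 of 23191 (24.3%) changed, with 3472 up (15%) and 2167 down (9.34%), and for 1K alone 5068 of 23148 (21.9%) changed, with 2587 up (11.2%) and 2481 down (10.7%). These single-array comparisons share the EpiSC arrays and assume that the lone array varies like the other groups. The split depends on the scaling: rising genes made up 55.9% of calls here but 41.9% after normexp and quantile normalization, 42.4% after quantile normalization alone, 46.1% with median scaling and 43.6% in the authors' deposited table. The median difference over all genes was 0.40, against 0.02 to 0.28 under these other scalings, so differences within that shift carry no direction. No slide held both EpiSC and iPS arrays. With slide as a fixed block, where NOD-ES 4K and the other NOD ES arrays tie the iPS slide to another slide and the NOD EpiSC-like ES arrays tie that one to the EpiSC slides, 5380 genes changed, 36.6% of them up. That fit kept 2139 of the 4831 calls in the same direction. The shift of the iPS slide in it rests on NOD-ES 4K against NOD ES 43 and 85. Those arrays lay 1.125 and 1.151 apart, and any difference of culture between them enters the fit as slide. A call lost or turned under the block is therefore not told apart from such a difference. With only the 4 arrays in the fit, 642 genes changed. Both iPS arrays lay above both EpiSC arrays for 43.0% of genes and below them for 20.7%, which is the background for the counts of arrays that do not overlap.

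Genes of the pluripotency core were higher on the iPS arrays where they changed. Of 11 tested, 6 rose and 0 fell, with a median difference of 2.35 against 0.40 over all genes. For 3M alone 3 rose (median 1.44) and for 1K alone 7 (median 2.65). Without EpiSC P12 or P20 the count was 3 and 2, with slide as a fixed block 4 and with only the 4 arrays 1. Pou5f1, the POU factor required for pluripotency, was at 0.96 and 0.35 on EpiSC P12 and P20, 2.32 on 3M and 4.73 on 1K. The difference was 2.87 ± 0.79 (adjusted p = 0.024), of which 3M alone gave 1.66 ± 0.77 (adjusted p = 0.148) and 1K alone 4.07 ± 0.77 (adjusted p = 0.00418). Both iPS arrays were above both EpiSC arrays, and 1K stood clearly higher than 3M. Nanog, a homeobox factor of the naive network, showed the same order at -0.73, -0.40, 1.14 and 3.89. It missed the threshold in the mean (3.08 ± 1.01, adjusted p = 0.0523) and for 3M alone (1.71 ± 1.07, adjusted p = 0.284), and passed it for 1K alone (4.45 ± 1.07, adjusted p = 0.0141).

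Some core genes moved by like amounts on both iPS arrays. Utf1, a chromatin-associated factor of pluripotent cells, was at -1.57 and -1.58 on EpiSC, 1.18 on 3M and 2.28 on 1K, and rose by 3.31 ± 0.55 (adjusted p = 0.00163). Dppa2, a partner of Dppa4, rose by 2.87 ± 0.38 (adjusted p = 0.000392) from -0.67 and -1.39 to 2.06 and 1.62, and Zscan10, a zinc finger factor of ES cells, by 2.31 ± 0.54 (adjusted p = 0.011). In these 3 genes the iPS arrays stood together, apart from EpiSC. Tdgf1, the Nodal co-receptor Cripto, rose by 2.35 ± 0.66 and Foxd3, a forkhead factor, by 2.47 ± 0.79, with 1K as the highest array of the 4 for both. Neither passed for 3M alone (adjusted p = 0.154 and 0.256). Sox2, the partner of Pou5f1, was at 2.29 and 2.46 on EpiSC, 1.45 on 3M and 3.87 on 1K (0.28 ± 0.68, adjusted p = 0.788). Here 3M was the lowest and 1K the highest array, and the brighter probe of Sall4 (1.76, 1.76, 1.53 and 3.40) had the same order. A second Sall4 probe had both iPS arrays above EpiSC (0.61, 0.22, 1.54 and 1.25), so its probes disagree. Lin28a lay between 1.39 and 2.08 on all 4 arrays.

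Among the reprogramming factors, which share Pou5f1, Sox2, Klf4 and others with the lists above and below, 2 of 11 rose and 2 fell, and for 3M alone 1 rose and 2 fell. Klf4 was at 5.56 and 5.70 on EpiSC, 5.99 on 3M and 7.63 on 1K (1.18 ± 0.81, adjusted p = 0.326). The endogenous gene and a transgene cannot be told apart by a probe that reads both. Myc, the cell growth factor, fell by 0.95 ± 0.30 on the log2 scale (adjusted p = 0.0425) from 0.74 and 1.14 to -0.47 on 3M and 0.45 on 1K, and 1 of its 3 probes went the other way (0.87). Mycl fell by 2.06 ± 0.48 (adjusted p = 0.0103) from 0.73 and 0.84 to -1.73 and -0.80. Neither fall held with slide as a fixed block or without either EpiSC array. Mycn was between 1.18 and 2.26 on the 4 arrays.

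Naive transcription factors gave some of the widest gaps between the groups. Of 13 tested, 8 rose and 0 fell (median 4.75), 6 for 3M alone (median 3.55) and 10 for 1K alone (median 5.03). Without EpiSC P12 or P20 the count was 6 each, with slide as a fixed block 10 and with only the 4 arrays 5. Zfp42, whose product Rex1 marks naive ES cells, was not well above background on either EpiSC array and stood at 4.57 on 3M and 5.76 on 1K. It was at least 653.6-fold higher on the iPS arrays (adjusted p = 4.6e-05). The 250 bases before its RefSeq start (build GRCm38.p6, chr8:43307010-43307259, minus strand) are shown because this gene is among those that rose most and its window holds the octamer ATTTGCAT read by POU factors, in capitals, whose first base lies 186 bases before the start:
Zfp42: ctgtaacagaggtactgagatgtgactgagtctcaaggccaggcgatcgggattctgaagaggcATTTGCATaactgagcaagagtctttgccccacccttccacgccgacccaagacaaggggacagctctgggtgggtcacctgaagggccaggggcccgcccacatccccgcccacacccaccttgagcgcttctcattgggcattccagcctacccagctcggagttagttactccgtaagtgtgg

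The octamer, searched on both strands, is in 1.81% of all 27025 promoter windows of this length and in 1 of the 11 windows of naive factors, that of Zfp42. The match describes letters and shows no binding. Esrrb, an orphan nuclear receptor, was near the background on EpiSC (-5.39, not well above it, and -4.41) and at 2.17 on 3M and 5.08 on 1K, a rise of 8.52 ± 1.07 (adjusted p = 0.000263). Its second probe was dimmer and gave 1.66. Nr0b1, a nuclear receptor that binds Pou5f1, was not well above background on EpiSC and was at 1.40 and 4.28 on the iPS arrays, at least 122.8-fold higher (adjusted p = 0.000291). In both genes 1K was far above 3M. Nr5a2, a nuclear receptor that can replace Pou5f1 in reprogramming, rose by 5.68 ± 0.72 (-2.31, -2.24, 2.84 and 3.97), and Mybl2, a cell cycle factor, by 4.75 ± 0.31 (0.91, 0.53, 5.18 and 5.75), with both iPS arrays near each other. Zfp42, Esrrb, Nr0b1, Nr5a2 and Mybl2 each kept the call under every alternative that was run.

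Tfcp2l1, a LIF target and naive network factor, was at -1.03 and -1.34 on EpiSC, 2.37 on 3M and 5.75 on 1K. It rose by 5.25 ± 1.33 (adjusted p = 0.0163), with 3.55 ± 1.45 for 3M alone (adjusted p = 0.104) and 6.94 ± 1.45 for 1K alone (adjusted p = 0.00714). Tbx3, a T-box factor, rose by 5.10 ± 0.92 (0.19, 0.29, 4.15 and 6.52) and Tcl1, an Akt co-activator, by 3.63 ± 0.89 (-2.27, -2.48, 0.09 and 2.42), though Tcl1 was not called for 3M alone (adjusted p = 0.0894). Klf5 was at 1.98 and 1.67 on EpiSC, 2.35 on 3M and 4.64 on 1K and passed the test for 1K alone (2.82 ± 0.80, adjusted p = 0.03), as did Zfp57, a guardian of imprints (4.09 ± 1.19, adjusted p = 0.0339). Gbx2 was at -3.17, -2.62, -1.62 and -1.71 (1.23 ± 0.44, adjusted p = 0.0725). For Klf2 the brighter probe gave 0.01 ± 0.44 (6.96, 6.64, 6.94 and 6.68) and the dimmer probe 2.81, so its 2 probes disagree.

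Markers of naive cells other than transcription factors moved with them. Of 14 tested, 12 rose and 0 fell (median 6.39). For 3M alone 10 rose and 1 fell, and for 1K alone 13 rose, while 10 rose without either EpiSC array and with only the 4 arrays, and 11 with slide as a fixed block. Dppa5a, an RNA-binding protein of ES cells, was at -0.88 and -0.76 on EpiSC, 9.46 on 3M and 9.17 on 1K, a rise of 10.13 ± 0.23 (adjusted p = 1.85e-09). Tdh, the threonine dehydrogenase on which mouse ES cells depend, was at -2.04 and -2.13 on EpiSC, 6.97 on 3M and 7.74 on 1K, a rise of 9.44 ± 0.50 (adjusted p = 1.59e-06). Tex19.1, a germ cell and ES cell protein, rose by 6.72 ± 0.20 (-1.14, -1.24, 5.45 and 5.61). In each of these genes the gap between the groups was many times the distance between the arrays of a group. Alpl, the alkaline phosphatase used to stain pluripotent colonies, rose by 5.02 ± 0.27 and Fbxo15, an ES cell reporter gene, by 6.32 ± 0.75.

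Dppa4, Dppa3, Ooep and Pecam1 were not well above background on EpiSC. Dppa4, the partner of Dppa2, was at 2.80 on 3M and 3.50 on 1K, at least 162.1-fold higher. Dppa3, a maternal factor that protects DNA methylation, was at 3.83 on 3M and 0.81 on 1K, at least 91.15-fold higher, and is the gene of the list for which 3M stood farthest above 1K. Its call was lost with slide as a fixed block. Ooep, of the maternal subcortical complex, was at least 144.2-fold higher and Pecam1, an adhesion molecule of naive cells, at least 6.096-fold. Khdc3, also of that complex, rose by 6.46 ± 0.79. Jam2 rose by 2.67 ± 0.82, with 1K as the highest array (4.81), and was not called for 3M alone (adjusted p = 0.226). Spp1, osteopontin, fell for 3M alone by 1.52 ± 0.38 (adjusted p = 0.0171), with 1K at 6.68 between the EpiSC arrays (6.49 and 6.78).

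**Figure D2:**
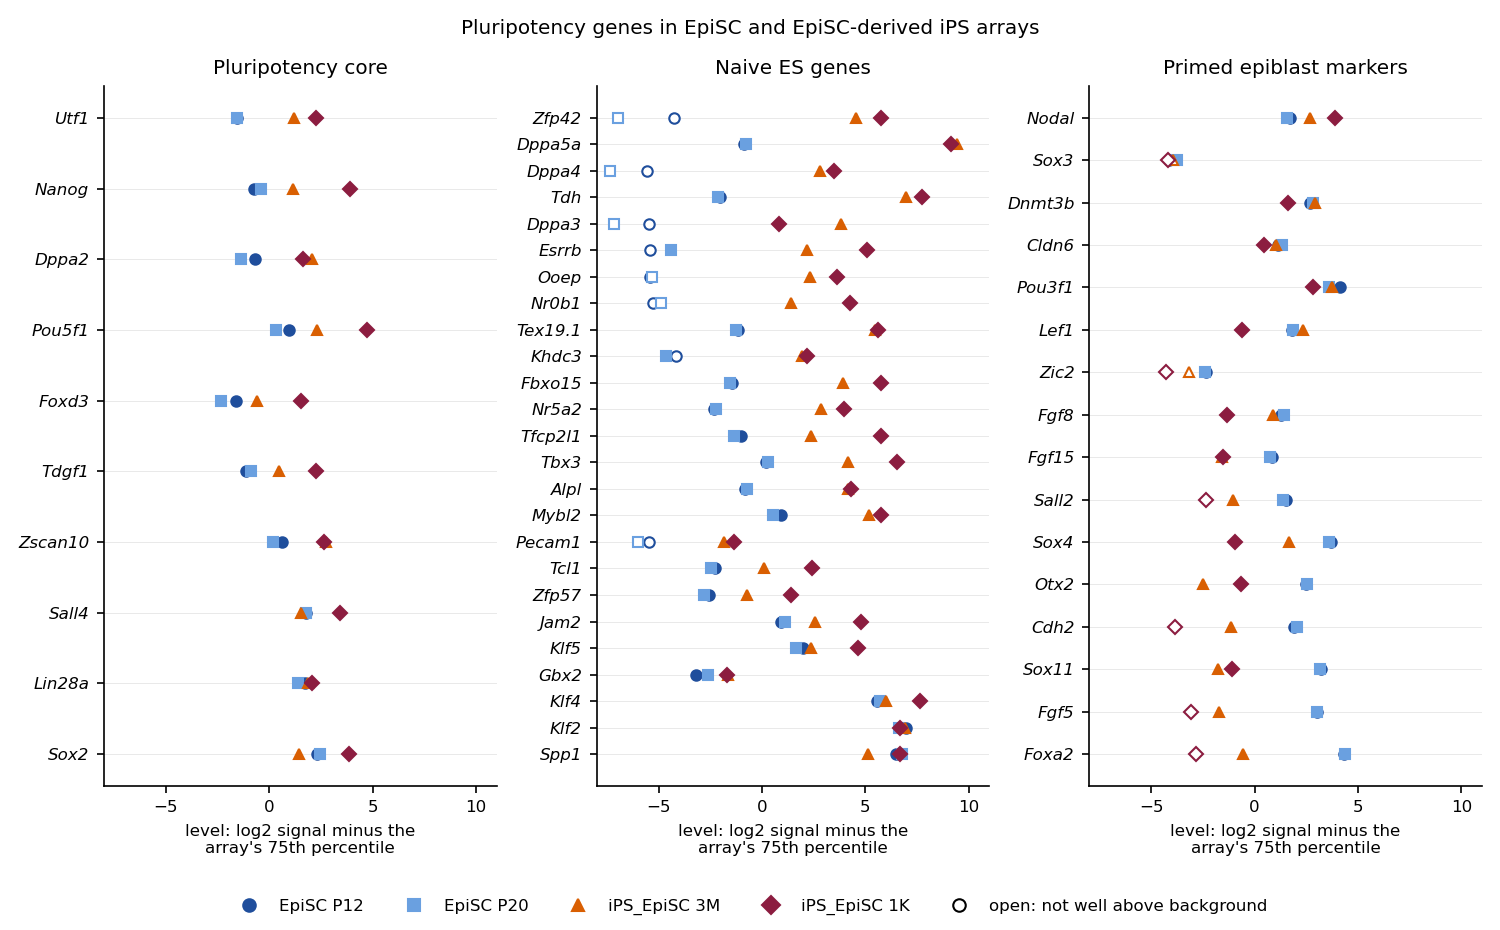
Levels (log2 signal minus the 75th percentile of the array) of the core, naive and primed genes named in the text on EpiSC P12 (circles), EpiSC P20 (squares), 3M (triangles) and 1K (diamonds), with open symbols where the gene was not well above background on that array. Most naive genes lie to the right on both iPS arrays, as Dppa5a does at 9.46 and 9.17 against -0.88 and -0.76, while Fgf5, Foxa2 and Otx2 lie to the left.

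Primed epiblast markers were lower on the iPS arrays, with exceptions. Of 16 tested, 8 fell and 1 rose (median -1.96). For 3M alone 7 fell, and for 1K alone 12 fell and 1 rose. Without either EpiSC array 7 fell, with slide as a fixed block 5 and with only the 4 arrays 4. Fgf5, the growth factor that defines the primed epiblast, was at 3.02 and 3.00 on EpiSC, -1.71 on 3M and -3.06 on 1K, not well above background there. It fell by 5.39 ± 0.39 (adjusted p = 8.73e-06). Otx2, the homeobox factor that drives exit from the naive state, was at 2.46 and 2.54 on EpiSC, -2.48 on 3M and -0.64 on 1K and fell by 4.06 ± 0.61 (adjusted p = 0.000823). For Otx2 the lowest array was 3M, and for Fgf5 it was 1K. Foxa2, an endoderm and node factor, fell by 6.01 ± 0.52 from 4.31 and 4.37 to -0.54 on 3M and below the well-measured range on 1K. Sox11 fell by 4.61 ± 0.34 (3.20, 3.16, -1.75 and -1.12), and all of its probes gave a lower mean on the iPS arrays. These falls of Fgf5, Foxa2 and Sox11 held under every alternative run, and that of Otx2 did not hold with slide as a fixed block.

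Cdh2, N-cadherin, fell by 4.49 ± 0.74 (1.89, 2.07, -1.14 and -3.87), while its 2 dim probes gave 0.33 and 0.57. Sox4 fell by 3.28 ± 0.66 (3.70, 3.58, 1.66 and -0.93) and Sall2 by 3.13 ± 0.37 (1.5, 1.38, -1.04 and -2.33). Zic2 was called lower (limma adjusted p = 0.0449) at -2.367, -2.418, -3.195 and -4.287, but was not well above background on either iPS array. Its EpiSC levels were near the weakest signals measured well on 3M (-2.733) and 1K (-2.009), so no bound on its fall can be given. Cdh2, Sox4, Sall2 and Zic2 lost the call with slide as a fixed block, and Zic2 was not called for 3M alone (adjusted p = 0.228). Nodal, the TGF-beta family ligand, was the exception in the mean. It was at 1.69 and 1.59 on EpiSC, 2.70 on 3M and 3.88 on 1K and rose by 1.65 ± 0.45 (adjusted p = 0.0222), but 3M alone gave 1.06 and did not pass (adjusted p = 0.126). Lef1 (1.82, 1.86, 2.34 and -0.59), Fgf8 (1.27, 1.42, 0.88 and -1.32), Dnmt3b (2.68, 2.84, 2.94 and 1.61) and Pou3f1 (4.13, 3.61, 3.75 and 2.85) were lower on 1K, while 3M lay near EpiSC by these probes. A second Lef1 probe had 3M above EpiSC (-0.26, -0.32, 2.43 and -2.64, the last not well above background). A dimmer Fgf8 probe had 1K as the highest array (-3.66, -3.18, -4.58 and -1.51), so the probes of both genes disagree. Fgf15 was at 0.85 and 0.76 on EpiSC and -1.56 and -1.53 on the iPS arrays (adjusted p = 0.0633). Cldn6 lay between 0.44 and 1.32 on the 4 arrays, and Sox3 was well above background on EpiSC P20 alone.

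Genes of the mesendoderm and the organizer, which primed cells can switch on at a low level, were lower. Of 16 tested, 9 fell and 0 rose (median -1.94, and -1.46 where bounds replace fitted values). For 3M alone 9 fell and 1 rose, and 9 fell for 1K alone, 7 without either EpiSC array, 10 with slide as a fixed block and 6 with only the 4 arrays. Cer1, a secreted Nodal and BMP inhibitor, was at 4.27 and 4.28 on EpiSC and not well above background on either iPS array, at least 100.2-fold lower (adjusted p = 0.000451). T, brachyury, was at 1.66 and 1.63 on EpiSC and also not well above background on the iPS arrays, at least 16.17-fold lower. Gsc, goosecoid, fell by 5.04 ± 0.44 (2.88, 2.75, -2.14 and -2.32). Cer1, T and Gsc were thus separated by both EpiSC arrays standing high together.

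Of 14 neuroectoderm genes, 6 were lower past the test and 0 higher (median -2.06, and -1.48 where bounds replace fitted values), with 5 falling for 3M alone and 8 for 1K alone, and 4 with only the 4 arrays. Fabp7, a fatty acid binding protein of radial glia, was at 4.29 and 4.57 on EpiSC and not well above background on the iPS arrays, at least 111.8-fold lower (adjusted p = 3.63e-06). Map2, of neuronal microtubules, was at least 11.61-fold lower (1.09 and 1.32 on EpiSC). Zic1 fell by 4.78 ± 0.58 (1.64, 1.83, -2.21 and -3.88) and Pax6 by 3.15 ± 0.70 (-0.60, -0.41, -3.00 and -4.31). The Pax6 probe used was not well above background on either iPS array, so the size of that fall is uncertain. For 3M alone Pax6 did not pass (-2.49, adjusted p = 0.0515), nor did it in the mean without EpiSC P20. On every one of these genes 1K and 3M lay below both EpiSC arrays. Of 14 primitive endoderm genes 1 rose and 1 fell, and 3 rose and 1 fell for 3M alone. Gata6, the endoderm factor, fell by 2.56 ± 0.45 (1.07, 1.55, -0.34 and -2.16) and Lama1, a laminin chain, rose by 2.26 ± 0.34 (-1.88, -2.11, 0.28 and 0.25). For 1K alone 6 of this list fell. Of 11 trophectoderm genes 3 rose and 1 fell, as many as for 3M alone: Esx1 and Hand1 were at least 12.33-fold and 2.315-fold higher, Tfap2c rose by 2.97 ± 0.34 and Gata3 fell by 2.05 ± 0.44. Hand1 was well above background on 3M alone, and Gata6, Hand1, Tfap2c and Gata3 lost the call with slide as a fixed block. As the mean over all probes of a gene, Gata6 and Map2 were not called.

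Signalling genes were read by pathway. In the LIF-STAT3 pathway 1 of 12 genes rose (Tfcp2l1, above, not called without EpiSC P12 or P20) and 1 fell. The faller was Junb, an AP-1 subunit, at 6.41 and 6.55 on EpiSC, 4.53 on 3M and 4.94 on 1K (-1.74 ± 0.24, adjusted p = 0.000487), a call lost with slide as a fixed block and with only the 4 arrays. For 3M alone 1 of the list rose and 1 fell. The LIF receptor Lifr ranged from -4.72 to -2.50 on EpiSC and was at 0.22 on 3M and -2.10 on 1K (adjusted p = 0.2), so its EpiSC arrays were far apart. In the Nodal-SMAD2/3 pathway 2 of 13 rose (Nodal and Tdgf1) and 5 fell, and for 3M alone 0 rose and 4 fell. Neither riser passed without EpiSC P12 or P20. Besides Cer1, the feedback inhibitor Lefty1 was among them, at 5.02 and 5.03 on EpiSC, 3.41 on 3M and 0.86 on 1K, and fell by 2.89 ± 0.91 (adjusted p = 0.0439). Lefty1 was not called for 3M alone (adjusted p = 0.25). The count of fallers was 3 and 2 without EpiSC P12 or P20 and 1 with only the 4 arrays.

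Feedback genes of FGF-ERK signalling moved both ways: 6 of 14 fell and 2 rose, 8 fell for 3M alone and 6 for 1K alone, and with only the 4 arrays 1 fell. The immediate early genes Fos (3.45, 3.46, -0.49 and 0.85) and Egr1 (5.61, 5.64, 2.70 and 3.15) fell by 3.27 ± 0.45 and 2.70 ± 0.29, Ier3 by 2.59 ± 0.47 and the phosphatase Dusp4 by 2.38 ± 0.49 (3.84, 3.77, 1.80 and 1.05). The ETS factors Etv4 (0.18, -0.18, 1.57 and 2.48) and Etv5 (-2.88, -2.34, -0.47 and -0.34), named after their values were seen, rose by 2.03 ± 0.36 and 2.20 ± 0.29, and Etv4 lost the call with slide as a fixed block. So the iPS arrays were lower for the first 4 genes and higher for the ETS pair. Of 13 WNT targets 5 fell and 0 rose, 4 for 3M alone and 7 for 1K alone. Besides T, Dkk1, a WNT inhibitor, fell by 4.83 ± 0.52 (1.75, 1.88, -2.06 and -3.97), Nkd1 by 4.15 ± 0.68 and Lgr5 by 2.99 ± 0.87 (0.26, 0.02, -1.58 and -4.11). Lgr5 was not called for 3M alone (adjusted p = 0.189). Without EpiSC P20 3 of the list fell, and with only the 4 arrays 2.

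Of 11 BMP ligands and Id genes, 7 were lower past the test and 0 higher (median -1.84, and -1.26 where bounds replace fitted values), and 7 fell for each iPS array alone. Id2, an inhibitor of basic helix-loop-helix factors, was at 4.41 and 4.47 on EpiSC, 0.49 on 3M and 1.94 on 1K and fell by 3.22 ± 0.38 (adjusted p = 0.000171). Id3 fell by 2.14 ± 0.34 (4.17, 3.99, 2.57 and 1.30) and the decoy receptor Bambi by 2.34 ± 0.43 (2.65, 2.95, 0.00 and 0.92). Bmp2, a ligand, was not well above background on the iPS arrays and was at least 2.373-fold lower. Both iPS arrays were below EpiSC for each of these genes. With slide as a fixed block 1 of the list fell, with the calls of Id2, Id3 and Bambi lost, and with only the 4 arrays 1 fell.

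Of the enzymes that write, read or remove DNA methylation, 4 of 10 rose and 1 fell, and for 3M alone 3 rose and 1 fell. Dnmt3l, the cofactor of de novo methylation, was at -2.42 and -2.40 on EpiSC, 7.09 on 3M and 5.96 on 1K and rose by 8.94 ± 0.40 (adjusted p = 5.18e-07). The dioxygenases that oxidize methylcytosine went opposite ways by the probes that stood for them. Tet1 rose by 2.28 ± 0.41 (-0.94, -1.27, 0.76 and 1.59) and Tet2 by 2.86 ± 0.73 (-3.72, -3.25, -1.80 and 0.55), while Tet3 fell by 3.07 ± 0.38 (-0.15, 0.18, -2.76 and -3.35). That Tet3 probe was not well above background on either iPS array. Tet3 lost the call as the mean over all its probes and with array weights, and its difference ran from -3.37 to -0.65 over the fits run. Uhrf1, which brings Dnmt1 to new DNA and was named after its values were seen, rose by 1.51 ± 0.25 (3.83, 3.79, 5.15 and 5.48). Tet2 was not called for 3M alone (adjusted p = 0.105) nor with slide as a fixed block, and with only the 4 arrays 1 gene of the list rose.

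Germ line genes, many of which are kept silent by promoter methylation in somatic cells, rose where they changed. Of 16 tested, 4 and 7 were well above background on EpiSC P12 and P20, 13 on 3M and 10 on 1K. In the mean 10 rose and 0 fell (median 4.40, and 3.46 where bounds replace fitted values), 11 for 3M alone and 10 for 1K alone. Tex15 lacks a value on EpiSC P12. Ddx4, the germ cell RNA helicase, was at -0.88 on 3M and 0.79 on 1K, not well above background on EpiSC, and at least 17.7-fold higher (adjusted p = 0.000354). Sycp3, of the synaptonemal complex, was at -1.10 and -0.36 and at least 11-fold higher, and Dazl, a germ cell RNA-binding protein, at -1.31 and -0.44 and at least 9.938-fold higher. Mael, of the piRNA pathway, named after its values were seen, rose by 3.46 ± 0.38 from -3.53 (not well above background) and -3.91 to -0.17 and -0.34. Ddx4, Sycp3, Dazl and Mael each kept the call under every alternative run. For the list, 6 rose and 2 fell with slide as a fixed block and 6 rose with only the 4 arrays. The homeobox genes Rhox5 (-0.82, -0.42, 5.37 and 1.77), Rhox6 (-3.83, -2.51, 4.81 and 0.31) and Rhox9 (-2.44, -3.24, 4.20 and 0.31) rose by 4.19 ± 0.79, 5.73 ± 1.09 and 5.10 ± 0.94, with 3M far above 1K. Rhox5 and Rhox9 were named after their values were seen, Rhox copies are alike in sequence so probes may read more than 1, and all 3 lost the call with slide as a fixed block.

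Promoters of 3 called germ line genes are shown because they hold the E-box CACGTG, the letters read by Max-containing factors that silence germ line genes in ES cells. Each is the 250 bases before the RefSeq start in build GRCm38.p6, with the E-box in capitals: Ddx4 (chr13:112652311-112652560, minus strand, E-box starting 29 bases before the start), Mael (chr1:166238745-166238994, minus strand, 223 bases before) and Sycp3 (chr10:88459337-88459586, plus strand, 2 copies, the first starting 64 bases before).
Ddx4: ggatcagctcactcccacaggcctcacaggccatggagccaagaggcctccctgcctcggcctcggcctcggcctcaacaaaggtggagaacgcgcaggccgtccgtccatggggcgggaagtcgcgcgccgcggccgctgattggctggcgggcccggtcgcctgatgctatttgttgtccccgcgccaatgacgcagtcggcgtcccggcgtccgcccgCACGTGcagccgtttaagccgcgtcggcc
Mael: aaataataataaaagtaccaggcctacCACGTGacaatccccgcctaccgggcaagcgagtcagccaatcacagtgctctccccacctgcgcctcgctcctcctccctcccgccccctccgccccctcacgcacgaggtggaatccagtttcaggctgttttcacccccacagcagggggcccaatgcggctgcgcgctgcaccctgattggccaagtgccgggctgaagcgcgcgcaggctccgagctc
Sycp3: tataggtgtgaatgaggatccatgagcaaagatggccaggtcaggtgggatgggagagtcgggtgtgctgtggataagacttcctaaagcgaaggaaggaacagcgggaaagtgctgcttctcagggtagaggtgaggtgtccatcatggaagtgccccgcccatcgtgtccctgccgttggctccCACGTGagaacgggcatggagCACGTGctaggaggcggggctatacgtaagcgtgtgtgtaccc

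This palindrome reads the same on both strands. It is in 6.86% of all 27025 windows and 8.77% of the 14137 windows of tested genes, and in 7 of the 12 germ line genes with a window (Ddx4, Hormad1, Mael, Slc25a31, Stk31, Sycp1 and Sycp3). It is in 2 of 11 windows of naive factors, 0 of 8 of the other naive markers, 0 of 13 of the mesendoderm list and 1 of 10 of the primed list. The motif was chosen with the values known. Of its 7 germ line holders Ddx4, Mael, Sycp3 and Stk31 rose, and Hormad1 (adjusted p = 0.0514), Sycp1 (adjusted p = 0.181) and Slc25a31 (adjusted p = 0.0971) did not pass the test. A match is a description of letters and shows neither binding nor a cause.

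Imprinted genes, expressed from a single parental copy, were mostly lower. Of 23 tested, 13 fell and 1 rose (median -1.95), 11 fell for 3M alone, 14 for 1K alone, 10 without either EpiSC array, 9 with slide as a fixed block and 1 with only the 4 arrays. Nnat, neuronatin, was at 3.29 and 2.83 on EpiSC and not well above background on the iPS arrays, at least 41.01-fold lower. Plagl1, a zinc finger factor, fell by 6.24 ± 0.93 (3.86, 4.04, -0.53 and -4.05), while its dimmer probe gave a smaller difference of the same sign. H19, a long noncoding RNA next to Igf2, fell by 4.96 ± 0.64 (5.79, 5.07, 1.79 and -0.85) and lost the call with slide as a fixed block. Phlda2, a placental growth regulator, was the riser, at -0.24 and -0.07 on EpiSC and 2.71 and 2.55 on the iPS arrays (2.79 ± 0.26, adjusted p = 4.15e-05).

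In the Dlk1-Dio3 region the iPS arrays parted. Dlk1, a Notch-like ligand from the paternal copy, was at 4.04 and 3.72 on EpiSC, 0.40 on 3M and -3.31 on 1K, not well above background there, and fell by 5.33 ± 1.09 (adjusted p = 0.00521). Meg3, the maternal noncoding RNA, was at 6.09, 5.80, 6.67 and 0.73, so that 3M was above EpiSC and 1K far below (adjusted p = 0.415 in the mean). All 5 Meg3 probes had 1K as the lowest of the 4 arrays, and on 1 of them 3M was also below EpiSC. The noncoding RNAs Rian (1.06, 1.02, 2.24 and -4.06) and Mirg (-0.19, -0.15, 1.74 and -4.16), named after their values were seen, had the same order and were not well above background on 1K. Dio3, the deiodinase at the other end, ran the other way at -0.03, -0.03, 1.22 and 5.10. On NOD ES 43 and 85 Meg3 had a mean of 1.26, Rian of -5.23 and Dio3 of 4.99, and on NOD-ES 4K Meg3, Rian and Dio3 were at 6.83, 3.73 and 1.73, so 1K stood near NOD ES 43 and 85 and 3M nearer NOD-ES 4K.

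Of the 4 X inactivation genes tested 1 rose, and 2 for 3M alone. Tsix, the antisense partner of Xist, was at -0.93 on 3M and -0.78 on 1K and not well above background on EpiSC, at least 9.581-fold higher on 3M and 10.64-fold on 1K (adjusted p = 0.000136 in the mean). Xist, the RNA that coats an inactive X, was low on all 4 arrays (-3.03, -2.80, -2.28 and -3.91, the last not well above background). Rlim, an activator of Xist, rose for 3M alone (1.57 ± 0.43, adjusted p = 0.0259; levels 2.96, 3.04, 4.57 and 3.07), and Ftx lay between -2.40 and -1.44. Y-linked genes differed between the iPS arrays. Eif2s3y, a translation factor subunit, was at 1.81 and 1.95 on EpiSC, -0.49 on 3M and -3.92 on 1K, not well above background there, and Ddx3y, an RNA helicase, was at 1.29, 1.15, -0.36 and -4.06. Both fell for 1K alone, at least 14.8-fold (adjusted p = 0.0405) and 9.352-fold (adjusted p = 0.0484), calls lost without EpiSC P12 or P20 and with no filter on dim probes. In all, 0 of 5 Y-linked genes were called for 3M alone. Kdm5d, a demethylase, was well above background on EpiSC alone among these arrays (adjusted p = 0.0315, a call lost without EpiSC P12, EpiSC P20 or 1K), Uty was well above it on EpiSC P20 alone and Sry on none of the 4. The summed level of the 5 genes was 2.64 and 2.69 on EpiSC, 0.72 on 3M and -1.72 on 1K, against -1.84 and -2.22 on NOD ES 43 and 85 and 2.36 on NOD-ES 4K.

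Of 16 threonine and one-carbon enzymes 9 rose and 0 fell (median 1.43), with 8 rising and 1 falling for 3M alone, 11 rising for 1K alone, 6 with median scaling and 1 with only the 4 arrays. The mitochondrial folate enzyme Mthfd2 rose by 2.08 ± 0.39 (1.36, 1.32, 2.73 and 4.11), the cytosolic Mthfd1 by 1.90 ± 0.34 (2.12, 2.05, 3.44 and 4.55) and the serine hydroxymethyltransferase Shmt2 by 1.71 ± 0.28 (2.29, 1.97, 3.40 and 4.28). Each was above both EpiSC arrays on both iPS arrays, highest on 1K, and each lost the call with slide as a fixed block. Of 13 cytochrome c oxidase subunits 5 rose and 0 fell. All 13, well above background on the 4 arrays, lay higher on both iPS arrays, as did 43.0% of all genes. The median difference was 0.73 against 0.40 over all genes. For 3M alone 4 rose, and 0 with median scaling. In the mean 2 rose after quantile normalization, 3 and 2 without EpiSC P12 or P20 and 11 with slide as a fixed block. Cox6b2, a testis-type subunit, rose by 2.20 ± 0.34 (1.04, 0.92, 2.72 and 3.63) and Cox6a2, Cox7a1 and Cox5b by 1.55, 1.45 and 1.11. Of 20 glycolysis genes 2 rose and 0 fell: the phosphofructokinase Pfkp rose by 2.21 ± 0.56 (0.43, 0.51, 1.71 and 3.65) and the pyruvate kinase Pkm by 1.1 ± 0.28 (5.59, 5.60, 7.01 and 6.38). Neither was called without EpiSC P12 or P20, Pfkp was not called for 3M alone (adjusted p = 0.0879), where 1 of the list rose and 1 fell, and after normexp and quantile normalization 1 rose and 5 fell, so the list has no firm direction.

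Of 16 epithelial genes, 5 were higher past the test and 2 lower, as for 3M alone in number, and without EpiSC P20 2 rose. Grhl2, an epithelial transcription factor, rose by 4.22 ± 0.85 (-3.08, -2.64, 2.91 and -0.20) and the tight junction gene Cldn4 by 3.19 ± 0.86 (-3.19, -2.75, 1.08 and -0.63), both with 3M above 1K. Epcam rose by 1.67 ± 0.24 (0.97, 1.38, 2.74 and 2.94), and so did the splicing factor Esrp2 (1.67 ± 0.32), which lacks a value on EpiSC P12. With slide as a fixed block 0 of the list rose, and Cldn4 changed sign (-0.47). Of 12 mesenchymal transition factors 5 fell and 0 rose. Cdh2 is described above, Zeb2 fell by 3.25 ± 0.94 (0.64, 0.99, -0.62 and -4.25; not called for 3M alone, adjusted p = 0.16), Vim, vimentin, by 1.94 ± 0.44 (7.06, 7.09, 5.83 and 4.44) and Zeb1 by 1.80 ± 0.30 (1.32, 1.44, -0.38 and -0.46). For 3M alone 2 of the list rose and 4 fell, for 1K alone 10 fell, 3 and 2 fell without EpiSC P12 or P20, and with slide as a fixed block 0 fell. As the mean over all probes of a gene 2 fell, with Cdh2, Zeb2 and Vim not called. Of 13 antigen presentation genes 4 fell and 1 rose. The proteasome subunit Psmb8 fell by 3.20 ± 0.77 (1.67, 1.70, -0.06 and -2.97), B2m by 2.40 ± 0.54 (3.60, 3.51, 2.13 and 0.19) and the class I gene H2-K1, alike in sequence to its neighbours, by 1.83 ± 0.57. Psmb8 and H2-K1 were not called for 3M alone (adjusted p = 0.0522 and 0.243). Cd74 rose by 1.52 ± 0.49 but was well above background on EpiSC P20 and 3M alone, and the test of 3M by itself missed the threshold (adjusted p = 0.0892). For 3M alone 1 of this list fell and 2 rose, for 1K alone 10 fell, and without either EpiSC array or with the fixed block 0 fell and 0 rose.

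Markers of fibroblast feeder cells, on which these lines can be grown, moved beside the last 3 lists. All 20 were well above background on both EpiSC arrays and on 3M, and 17 on 1K. Their summed level was 9.27 and 9.17 on EpiSC, 10.19 on 3M and 7.0 on 1K. It was 5.94 and 6.07 on the mESM arrays, 8.82 on epiESM, 8.83 on NOD-ES 4K and 7.05 and 6.93 on NOD ES 43 and 85. Of 20 genes 4 fell and 0 rose in the mean, 2 rose and 4 fell for 3M alone, and 13 fell for 1K alone. Lum, lumican, fell by 3.67 ± 0.76 (1.40, 1.68, -0.45 and -3.82), Dcn, decorin, by 3.00 ± 0.85 (3.59, 3.57, 2.54 and -1.39) and the metalloprotease Mmp2 by 2.29 ± 0.44 (2.85, 2.46, 1.16 and -0.43). Acta2, smooth muscle actin, was at 5.68, 5.41, 7.97 and 3.58 and Pdgfrb, a growth factor receptor, at 1.52, 1.42, 3.34 and 0.63, and both rose for 3M alone by 2.42 ± 0.74 and 1.87 ± 0.47. Acta2 and Pdgfrb were named after their values were seen. The part of feeder cell RNA in the mesenchymal, antigen presentation, imprinted and other results was not tested, and 2 of the fibroblast genes fell without either EpiSC array and 0 with slide as a fixed block.

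Genes of the 2-cell-stage embryo, which a small share of ES cells switch on at a time, were high on 3M. All 5 tested rose for 3M alone (median 5.98), 1 for 1K alone (median 1.61) and 3 in the mean. Tcstv1 was at -4.28 and -4.03 on EpiSC, 4.28 on 3M and -0.78 on 1K, a rise of 8.43 ± 1.42 for 3M alone (adjusted p = 0.00259). Zscan4c, of a telomere-linked zinc finger family, was at -4.35, -4.09, 2.28 and -0.85 and rose by 6.51 ± 0.91 for 3M alone and 3.37 ± 0.91 for 1K alone. Tcstv3 (-3.15, -2.87, 2.96 and -1.40) and Usp17la (-2.96, -3.48, 2.47 and -1.82) had the same order, and Zfp352 was at -0.34 on 3M and not well above background on 1K. So 3M was the highest of the 4 arrays for all 5. Over the fits run for 3M alone, the difference was 2.41 to 8.56 for Tcstv1, 3.40 to 6.64 for Zscan4c and 2.31 to 6.21 for Tcstv3. For Usp17la it was 3.19 to 5.94 and for Zfp352 1.34 to 3.65. NOD-ES 4K, on the same slide, was at 2.86 for Tcstv1 and 1.26 for Zscan4c, against a mean of -0.41 and -1.02 on NOD ES 43 and 85. The epiESM array, on another slide, was high as well, with Tcstv1 at 3.35. Its median level over the 5 genes was 2.63, against 2.47 on 3M. These genes lie in families of near-identical copies, so a probe may read several. In the mean, 1 rose without either EpiSC array and 0 with slide as a fixed block or with only the 4 arrays, and Tcstv1 then changed sign under the block (-0.12).

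**Figure D3:**
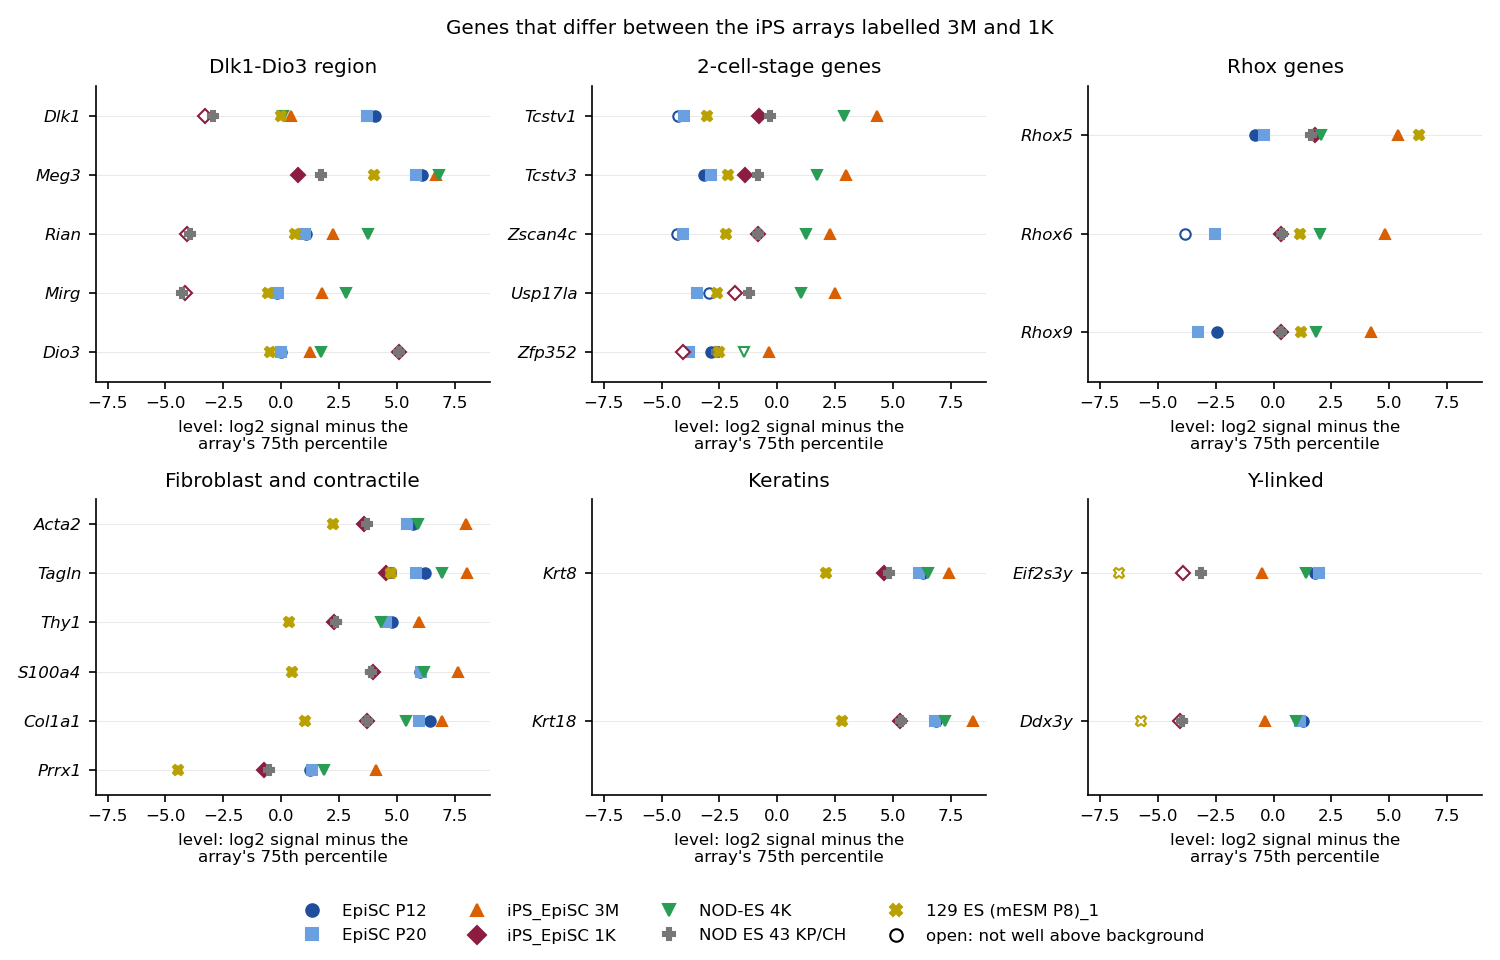
Levels of genes that part 3M from 1K, on both EpiSC arrays, both iPS arrays, NOD-ES 4K, NOD ES 43 and an mESM array, with open symbols where not well above background. The genes were picked for this gap. For Meg3, Tcstv1, Acta2, Krt8 and Eif2s3y, 1K (diamonds) lies beside NOD ES 43 (plus signs), and 3M (orange triangles) lies above it.

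Set against each other with no replicate and no test, 1K was higher than 3M by more than 2 log2 units for 193 (1.64%) and lower for 381 (3.24%) of 11764 genes well above background on both. The widest gaps with 1K higher were Crtac1 (2.96 against -2.07 on 3M, with EpiSC at -1.80 and -1.75), Arc, a synaptic gene (4.30 against -0.46, with EpiSC at 2.33 and 2.09), and Ly75 (2.64 against -2.09). Cth, of cysteine synthesis, was at 4.94 against 1.16, with EpiSC at -0.70 and -0.52. Those with 3M higher included Meg3, Ipp (4.63 against -0.94 on 1K, with EpiSC at -0.42 and -0.22), Syt13 (3.68 against -1.62), Tcstv1, Prrx1, a mesenchymal homeobox factor (4.09 against -0.73, with EpiSC at 1.26 and 1.32), Ankrd1 and Phldb2. Some genes passed the test in opposite directions. Hoxc9 rose by 2.59 ± 0.40 and Mylk by 1.76 ± 0.37 on 3M, and both fell on 1K. Neither was well above background on 1K, where the falls were at least 1.438-fold and 2.459-fold. Ifi27l2a rose by 1.85 ± 0.39 on 3M and fell on 1K, where its brighter probe was not well above background. Cdhr1 rose by 1.67 ± 0.32 on 1K and fell on 3M, where it was not well above background (at least 1.43-fold lower). The second Ifi27l2a probe had both iPS arrays above EpiSC. In the mean of both iPS arrays none of Hoxc9, Ifi27l2a, Mylk and Cdhr1 was called.

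**Figure D4:**
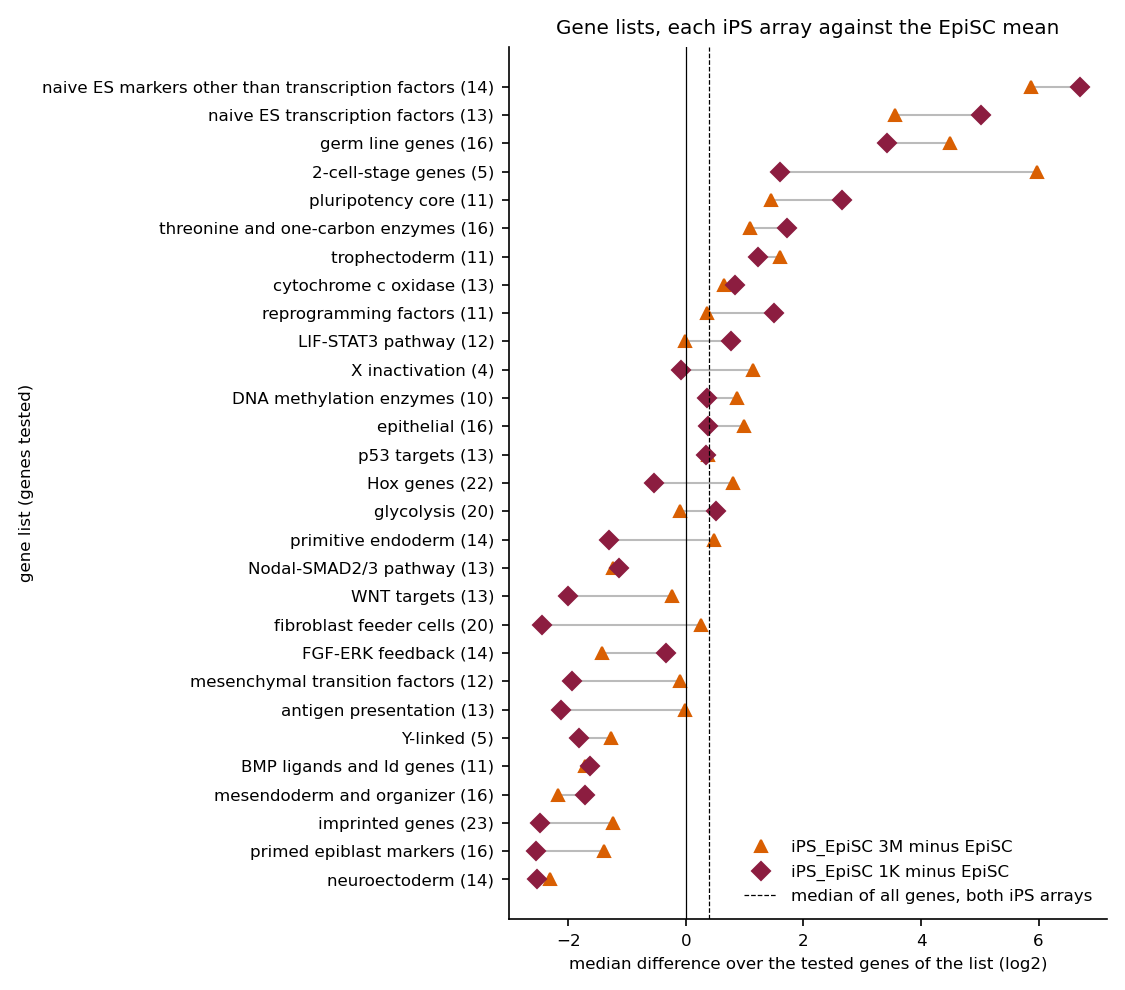
Median fitted difference from the EpiSC mean over the tested genes of each list, for 3M (triangles) and 1K (diamonds), with 0 as a solid line and the median of all genes in the mean of both iPS arrays (0.40) as a dashed line. Naive, germ line and core lists lie to the right for both arrays, and the fibroblast medians lie on opposite sides of 0 (0.26 and -2.44). The Hox and primitive endoderm medians do so as well, but with bounds in place of fitted values they are 0.0 for both arrays and 0.08 and -0.13, and 10 and 4 of 22 Hox genes were well above background on 3M and 1K.

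The widest changes outside the lists were also of both signs. Among the 10 genes that rose most in the mean with both iPS arrays beyond both EpiSC arrays were Rps4l, a ribosomal protein gene copy (-1.07, -1.34, 7.66 and 7.41, a rise of 8.74 ± 0.26, adjusted p = 1.34e-08), Rbmxl2, a germ cell RNA-binding protein gene (3.69 and 3.98, at least 260.3-fold higher), Morc1, which silences transposons in germ cells (2.92 and 3.84, at least 190.1-fold), Fmr1nb (at least 106.6-fold) and Pramel13 (at least 102.6-fold). The other members of these 10 are Zfp42, Dppa5a, Dppa4, Tdh and Dnmt3l. Among the genes that fell most were Mela (7.45 and 7.39 on EpiSC and not well above background on the iPS arrays, at least 885.7-fold lower, adjusted p = 2.34e-08), Chgb, a secretory granule protein (at least 93.69-fold), Asb4 (at least 85.87-fold) and Tph1, of serotonin synthesis (at least 25.45-fold). Rgs8, a regulator of G proteins, was at 1.84 and 1.70 on EpiSC by its brighter probe, which was not well above background on either iPS array. For Mela and Rps4l the EpiSC arrays lay close together, far from both iPS arrays. The second probes of Chgb and Morc1 were not well above background on any of the 4 arrays.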

How the data were processed

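RNA of 16 mouse cultures was labelled with Cy3 and read on Agilent arrays of design 014868 (grid build mm 7), per the file headers and the labels' protocols. Per the labels' protocols, feeder cells were depleted from ES cells on gelatin, while EpiSC were separated mechanically. The authors deposited spot intensities extracted with Feature Extraction 10.1.1.1, background-subtracted per the file headers, and a table of log2 values, used here as an alternative, whose scaling is not stated and whose columns all have the same quartiles. The submitters' processing notes name limma.

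Control spots were removed, outlier spots treated as missing, and repeat spots averaged. Each log2 processed signal was set against the 75th percentile of its array. Of 41174 probes, the 34334 well above background on 2 or more of 16 arrays were kept, and the probe with the highest mean stood for a gene. In R 4.3.3, limma 3.58.1 (lmFit, eBayes) fitted 1 mean per group over all 16 arrays, in 7 groups, or 8 with 3M and 1K apart. A fit missing a value uses the other arrays, which concerns 83 genes on 1 of the 4 arrays. On simulated data 42 of 100 genes changed by 2 log2 units and 78 of 100 changed by 4 were called in iPS against EpiSC, with 7 false calls among 23192 genes. The simulation gave every array the same spread for a gene and no slide effect. Array weights fitted to the real data ran from 0.067 (NOD-ES 4K) to 11 (mESM), so these counts do not give the error rate of the real arrays.

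The 29 gene lists come from general knowledge, and members, lists and tests were chosen with earlier results of these data known. Named genes were any of the core, naive, primed, reprogramming, X inactivation and Y-linked lists, up to 4 with the largest difference of the others, and the extremes of each comparison. Other names are marked, and some named genes are not reported here. Names and promoters came from RefSeq tables. Amt, Fgf4, Gapdh, L1td1, Prdm14 and Trim71 are among the listed genes not tested.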

Additional observations from a re-analysis of the deposited data

How the results depend on the processing

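No paired analysis was possible because the EpiSC replicates are told apart by passage and the iPS replicates by 3M and 1K, so they share no number. Of the 124 named genes called in iPS against EpiSC, 43 were called under every alternative run and 62 under every alternative that dropped no array. Calls lost numbered 75 with only the 4 arrays, 49 with slide as a fixed block, 31 and 33 without EpiSC P12 or P20, 20 without 1K and 8 without 3M. With the mean over all probes of a gene 14 were lost. The count of changed genes was 642 with only the 4 arrays, 2965 with array weights and 2424 to 7306 when an array was left out. For 3M alone it was 3294 with median scaling, 12628 with slide as a fixed block, 8918 as a random block, 11030 with array weights and 2881 to 9675 with an array left out, and for 1K alone 13820, 10085, 10008 and 3292 to 8991 in the last 4 settings. Leaving out NOD-ES 4K gave the highest counts and leaving out EpiSC P20 the lowest. With slide as a fixed block the difference changed sign in the mean for Cldn4 (-0.47) and Tcstv1 (-0.12). It did so for 1K for Cldn4 (-1.33), Tcstv1 (-2.65), Tcstv3 (-2.06), Grhl2 (-0.06) and Rlim (-1.01), and for 3M for Sox2 (0.76), Sall4 (1.31), Lef1 (-0.64), Meg3 (-4.49), Rian (-7.05), Mirg (-6.51), Xist (-1.88), Crtac1 (4.95), Arc (1.39), Ly75 (3.92), Syt13 (-1.18) and Ankrd1 (-1.02). Klf2 for 1K turned to 1.52 as the mean of its probes. With an array left out the mean difference ran from -1.43 to 2.59 for Hoxc9, -1.99 to 1.67 for Cdhr1, -2.67 to 1.85 for Ifi27l2a and -2.40 to 1.76 for Mylk. After quantile normalization 3M had 1 of 4 strain genes nearer the NOD mean, with a gap of 2 log2 units or after normexp there were 0 such genes. The cause of these shifts was not tested. Genes near background have only bounds, most of all on 1K and NOD-ES 4K.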

Other observations

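Of 13 p53 targets 3 rose and 0 fell. Sesn2, a stress-response gene, was at 3.46 and 3.16 on EpiSC, 5.68 on 3M and 6.36 on 1K and rose by 2.71 ± 0.28 (limma, adjusted p = 7.68e-05). Trp53inp1 rose by 1.35 ± 0.32 (2.35, 2.70, 3.38 and 4.37) and the pro-apoptotic Bbc3 by 1.34 ± 0.32 (2.81, 2.65, 4.03 and 4.12). Both iPS arrays were above both EpiSC arrays for these 3 genes, and Trp53inp1 and Bbc3 lost the call with slide as a fixed block. Trp53inp1 was not called for 3M alone (adjusted p = 0.0526), where 2 of the list rose and 1 fell. Without EpiSC P12 1 of the list rose.

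Of 22 Hox genes, which pattern the body axis, 0 rose and 0 fell in the mean, with 10 well above background on 3M and 4 on 1K. The median difference was 0.81 for 3M alone and -0.53 for 1K alone, but 0.0 for both where bounds replace fitted values. In the mean 10 fell with slide as a fixed block and 4 after quantile normalization.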
